A study of Mus musculus with 6 samples.

Results

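Slc7a5 and 8 further genes of neutral amino acid transport were described in the anterior cingulate cortex (ACC) of mice: Slc3a2, Slc7a8, Slc7a10, Slc7a11, Slc38a1, Slc38a2, Slc38a3 and Slc1a4. They were taken by symbol from a table of 14250 rows, and all 9 had a row. Slc7a5 heads the set because it was selected on its measured level, as a gene called higher after LPS in these same libraries, and the others were added as its heavy chain and its relatives. The difference between LPS and saline is therefore given for these genes as a description that supports nothing further. The study compared C57BL/6 mice injected intraperitoneally on postnatal day 14 with LPS (lipopolysaccharide, a bacterial endotoxin, at 50 µg per kg) with mice that received pyrogen-free saline. Polyadenylated RNA was sequenced from hand-dissected ACC on postnatal day 45, after anaesthesia and cold perfusion, in 3 LPS and 3 saline libraries of 1 mouse each. The sources used here give neither the sex nor the litter of a mouse.

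Neutral amino acids cross cell membranes through carriers of several families. The SLC7 light chains exchange amino acids and reach the membrane as a heterodimer with the heavy chain encoded by Slc3a2 (the CD98 heavy chain). The light chain of Slc7a5 (LAT1) carries leucine, phenylalanine, tryptophan and other large neutral amino acids, as well as thyroid hormone, and is known for its abundance in the endothelium of the blood-brain barrier. The SLC38 carriers take up or release glutamine with sodium, which serves the exchange of glutamine between astrocytes and neurons. Several of these genes are known targets of ATF4, the transcription factor that cells use when amino acids run short. ATF4 acts through amino acid response elements, short DNA motifs in or near the promoters of its targets.

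The libraries held 36168700 to 41270700 counts (to 6 significant digits). Levels are given below as CPM (counts scaled to a common library size with TMM factors) within a gene and as the authors' FPKM (per transcript length) between genes. The 8 cortical markers had summed levels of 2108 to 2386 CPM in the saline and 2299 to 2359 CPM in the LPS libraries. Of the 8 choroid plexus markers only Kl had a row, and the 8 striatal markers summed to 160 to 166 CPM in the saline and 158 to 168 CPM in the LPS libraries. Meningeal fibroblast markers summed to 341 to 595 CPM in the saline and 464 to 797 CPM in the LPS libraries, with 9 of 10 above 0 in log2 change, a median of 0.32 and 0 called. Saline 1 had the lowest of these sums and LPS 3 the highest. Ptgds alone was at 166, 276 and 311 CPM in Saline 1 to 3 and 248, 400 and 497 CPM in LPS 1 to 3. In bulk tissue, fewer cells of a type and less RNA per cell cannot be told apart.

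Promoter sequence (250 bases before to 50 after the RefSeq start, GRCm38.p6) was found for 6 of the 9 genes. Slc7a5, Slc38a1 and Slc38a3 had no entry. The sequences below show the amino acid response element core, TGATGNAA on either strand, in the 2 of 6 members whose window held it. Capitals mark the core.
Slc7a11: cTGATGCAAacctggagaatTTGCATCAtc
Slc1a4: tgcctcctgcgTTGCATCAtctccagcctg
The Slc7a11 window lies at chr3:50443651-50443680 on the minus strand and holds a forward and a reverse copy, at positions -66 to -59 and -47 to -40 (position 0 is the first transcribed base). The Slc1a4 window lies at chr11:20332699-20332728 on the minus strand, and its copy spans the start, from -4 to 3. The core was present in 3.97% of 32851 promoter windows of this length. CACGTG, the E-box, was in 0 of the 6 member windows and 7.15% of all windows. TGACNNNGC, the antioxidant response element core, was in 1 of the 6, that of Slc38a2, and 12.4% of all windows. A match is a description of letters and not a binding site.

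Slc7a5, which lies on chromosome 8 from 121881150 to 121907694 (minus strand, GRCm38), was higher in every LPS mouse than in every saline mouse. Its counts were 3297, 3686 and 3269 in Saline 1 to 3 and 4954, 5127 and 4563 in LPS 1 to 3. Scaled to library size, these were 86.4, 92.1 and 85.9 CPM in the saline and 118, 127 and 125 CPM in the LPS libraries. The lowest LPS library thus stood well above the highest saline library. Saline 2 was the highest of its group, and LPS 1 was the lowest of its group. The means were 88.1 ± 3.43 CPM in the saline and 123 ± 4.55 CPM in the LPS group (SD, n = 3 each), 1.40-fold, or 0.48 on the log2 scale with an SE of 0.0578 and a 95% interval of 0.35 to 0.61. This is the value by which the gene was chosen: edgeR's quasi-likelihood test gave an adjusted p of 0.00788. Its exons share no base with those of another annotated gene.

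Among all 14250 rows, 0.0982% were called higher and 0.288% in either direction, and 6.84% had every LPS library above every saline library. A total of 329 rows, Slc7a5 included, were higher after LPS by a log2 change at least as large, most of them uncalled. The spread within each group was small, and the coefficient of variation of Slc7a5 was 3.89% in saline and 3.69% in LPS libraries.

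Genes near Slc7a5 were read for comparison. Of the 8 measured genes within 500 kb on either side, 0 were called, and 0 had an unadjusted p under 0.05 in edgeR. Their log2 changes ran from -0.13 (Banp, SE 0.243) to 0.18 (Klhdc4, SE 0.0968), and the groups of all 8 overlapped.

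**Figure D1:**
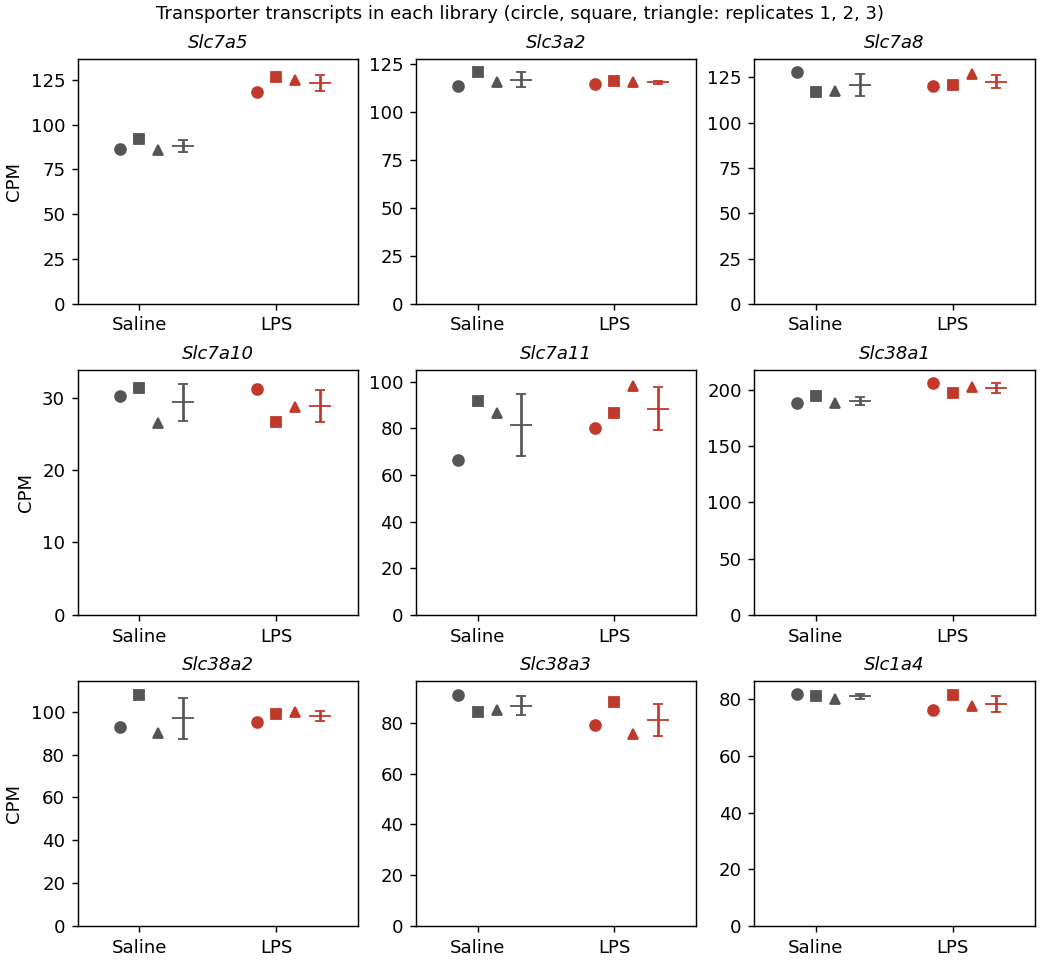
CPM (vertical axes, from 0) of the 9 transporter genes in the 3 saline (grey) and 3 LPS (red) libraries, with the group mean and SD as a bar to the right of the points. Slc7a5 lies at 85.9 to 92.1 CPM in the saline and 118 to 127 CPM in the LPS libraries, while the groups of 7 other genes overlap and those of Slc38a1 lie close together.

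The heavy chain partner overlapped between the groups. Slc3a2, whose product brings Slc7a5 to the membrane, lay on chromosome 19 from 8706882 to 8723369 and had 114, 121 and 116 CPM in the saline and 115, 116 and 116 CPM in the LPS libraries. The LPS values lay inside the saline range, and the log2 change was -0.02 (SE 0.0529, 95% interval -0.13 to 0.10).

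Other light chains of the same heterodimer overlapped between the groups too. Slc7a8 (LAT2, an exchanger of large and small neutral amino acids) had 128, 117 and 118 CPM in the saline and 120.2, 121 and 127 CPM in the LPS libraries, a log2 change of 0.02 (SE 0.0592, 95% interval -0.11 to 0.16). Slc7a10 (Asc-1, which carries small neutral amino acids, D-serine and glycine among them) had 30.3, 31.4 and 26.5 CPM in the saline and 31.2, 26.7 and 28.7 CPM in the LPS libraries. Its log2 change was -0.03 (SE 0.0917, 95% interval -0.23 to 0.18), and 377 bases of its exons overlap Lrp3 on the other strand, so its reads are uncertain. In both genes the groups overlapped throughout their range.

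Slc7a11 (xCT, which brings in cystine in exchange for glutamate) was the most variable of the 9. It had 66.3, 91.5 and 86.4 CPM in the saline and 80.2, 86.6 and 98.3 CPM in the LPS libraries. Saline 1 was the lowest and LPS 3 the highest, and the other 4 libraries were interleaved. Its coefficient of variation was 16.4% in saline and 10.4% in LPS libraries, and its log2 change of 0.12 (SE 0.134) had a 95% interval of -0.20 to 0.44, the widest of the set. Glutathione genes, which use the cystine it imports, are given with the other lists.

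The sodium-coupled glutamine carriers were read next. Slc38a1 (SNAT1, a glutamine uptake carrier of neurons) was the other gene whose groups did not overlap. It had 188, 194 and 188 CPM in the saline and 206, 197 and 202 CPM in the LPS libraries. The gap between the groups was narrow, with Saline 2 and LPS 2 nearly level, and the log2 change was 0.08 (SE 0.0516, 95% interval -0.03 to 0.20). By FPKM the groups overlapped, at 23.6 to 25.5 in saline and 24.8 to 27.1 in LPS mice, and Slc38a1 was not called.

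Slc38a2 (SNAT2, a carrier that many cells raise when amino acids are scarce) lies 44.5 kb from Slc38a1 on chromosome 15. It had 92.7, 108 and 90.0 CPM in the saline and 95.2, 99.0 and 99.8 CPM in the LPS libraries, with the LPS values inside the saline range. The log2 change was 0.02 (SE 0.0740, 95% interval -0.15 to 0.18). Slc38a3 (SNAT3, which releases glutamine from astrocytes) had 90.9, 84.1 and 84.9 CPM in the saline and 79.2, 88.2 and 75.7 CPM in the LPS libraries. LPS 1 and LPS 3 lay below all saline libraries and LPS 2 among them, with a log2 change of -0.10 (SE 0.0701, 95% interval -0.25 to 0.06).

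Slc1a4 (ASCT1, an exchanger of alanine, serine and cysteine) had the smallest spread of the 9 over saline libraries by CPM. It had 81.9, 81.0 and 80.2 CPM in the saline and 76.2, 81.5 and 77.5 CPM in the LPS libraries. LPS 2 lay within the saline range and the other LPS libraries below it, and the log2 change was -0.05 (SE 0.0544, 95% interval -0.17 to 0.08). The amino acid response element core was shown above for Slc7a11 and Slc1a4, whose log2 changes were 0.12 and -0.05. Slc7a5 had no promoter entry, and a link between the motif and the changes was not tested.

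In total 1 of the 9 genes was called higher and 0 lower, against 0.0982% and 0.189% of all rows. All LPS libraries lay above all saline libraries in 2 of the 9, against 6.84% of all rows. The median log2 change of the 9 was 0.02, and that of all rows was 0.0014. Because this contrast chose Slc7a5, nothing is read from these counts.

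Compared per transcript length in saline mice, Slc3a2 had the highest level, at 55.2 ± 2.15 FPKM (SD, n = 3), above 93.0% of all rows. Slc38a3 followed at 33.6 ± 0.125, Slc7a8 at 27.1 ± 0.687, Slc38a1 at 24.7 ± 0.966 and Slc7a5 at 23.0 ± 1.25 FPKM. Below these came Slc1a4 at 19.2 ± 0.320, Slc38a2 at 19.1 ± 2.09, Slc7a10 at 14.2 ± 1.12 and Slc7a11 at 8.12 ± 1.51 FPKM. Neighbours whose saline values overlapped were Slc38a1 with Slc7a5 and Slc1a4 with Slc38a2, and all other neighbours were separate. The genes thus spanned a moderate range, with Slc7a11, the lowest, above 53.9% of the rows. The smallest row total in the table was 185 counts, so these percentages are among detected genes and not all genes.

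In LPS mice Slc7a5 stood at 31.3, 32.2 and 32.5 FPKM, against 21.9, 24.3 and 22.8 FPKM in saline mice. It was then above all values of Slc7a8 (26.4 to 28.5 FPKM) and overlapped Slc38a3 (30.5 to 34.7 FPKM). The order depends on the transcript length used. With CPM per kb of the merged GENCODE exons, Slc3a2 stayed first and Slc7a11 last, and the other 7 changed place, Slc7a5 moving up to rank 3 at 23.8 ± 0.925 CPM per kb in saline libraries (SD, n = 3). The annotated exons of Slc38a1 cover 17.2 kb, while the authors' FPKM correspond to a length of 7.74 kb.

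**Figure D2:**
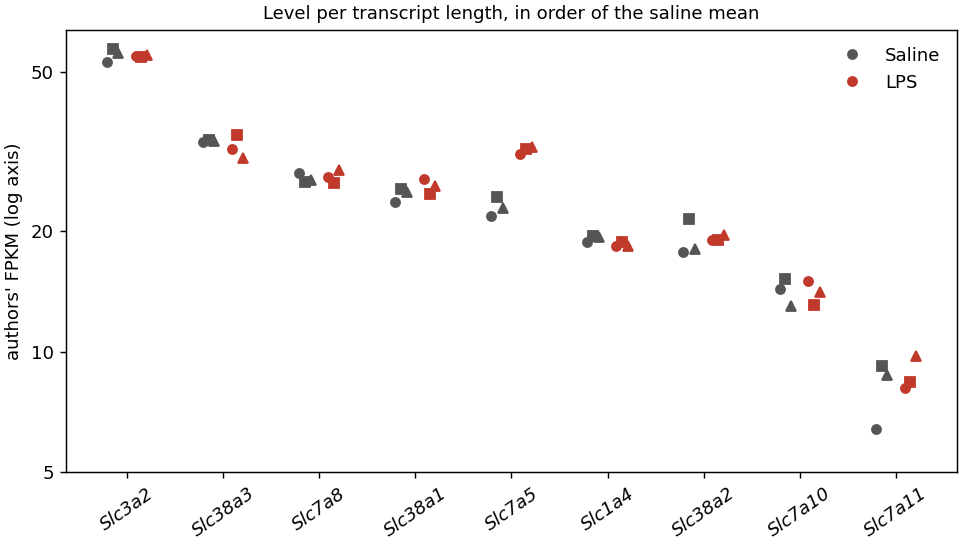
The authors' FPKM (log axis) of the 9 genes in saline (grey) and LPS (red) libraries, ordered by the saline mean, with circles, squares and triangles for replicates 1, 2 and 3. Slc3a2 is highest at 55.2 FPKM in saline and Slc7a11 lowest at 8.12, and the LPS points of Slc7a5 lie at 31.3 to 32.5 FPKM, above its saline points.

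The light chains that are known to pair with Slc3a2 were also summed in each library, adding Slc7a6 and Slc7a7, which exchange cationic for neutral amino acids. Slc7a5 made up 28.9%, 30.3% and 29.4% of the summed light chain FPKM in saline and 35.9%, 37.8% and 35.9% in LPS libraries. Slc7a8 made up 33.1% to 36.9% in saline and 31.1% to 31.4% in LPS libraries, so that the leading light chain was Slc7a8 in each saline library and Slc7a5 in each LPS library. Shares add up to a whole, and that of Slc7a8 is lower where its own level was not. The sum of the light chains per Slc3a2 was 1.43, 1.41 and 1.39 in saline and 1.59, 1.56 and 1.64 in LPS libraries by FPKM. With CPM per kb of merged exons this ratio was 2.24, 2.15 and 2.13 in saline and 2.49, 2.47 and 2.57 in LPS libraries. Its size thus depends on the transcript length used. By CPM per kb the share of Slc7a5 went from 33.1% ± 0.708 to 40.5% ± 1.39 (SD, n = 3 each), and the leading gene in Saline 2 was then Slc7a5, at 33.7% against 31.7% for Slc7a8. These shares follow from the difference in Slc7a5 that chose the set and carry no test.

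**Figure D3:**
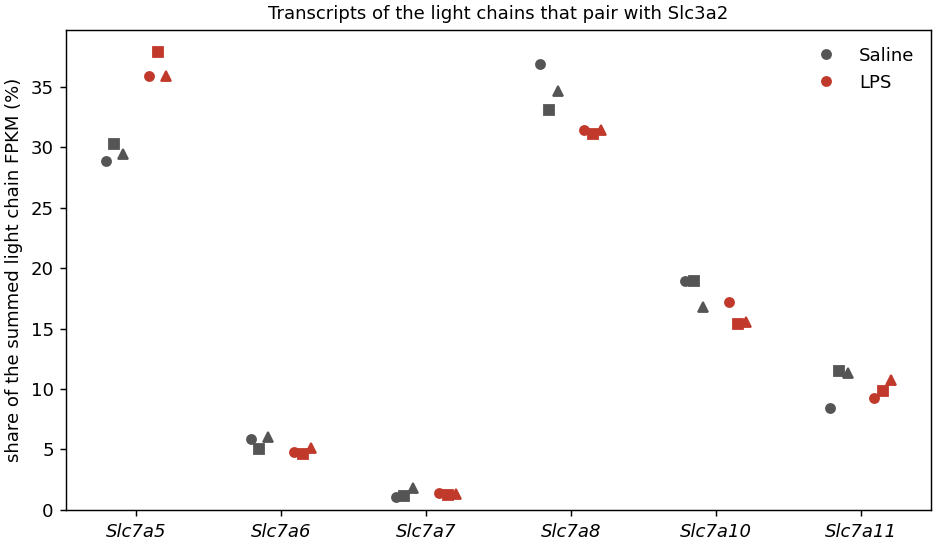
Share (%) of each light chain in the summed FPKM of the 6 light chains, in saline (grey) and LPS (red) libraries, with circles, squares and triangles for replicates 1, 2 and 3. The share of Slc7a5 is 28.9% to 30.3% in saline and 35.9% to 37.8% in LPS libraries, and that of Slc7a8 is 33.1% to 36.9% and 31.1% to 31.4%.

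Since LAT1 is abundant in brain endothelium, markers of that cell type were set beside Slc7a5. The 14 endothelial and barrier markers summed to 615 to 659 CPM in the saline and 632 to 667 CPM in the LPS libraries, ranges that overlap, with a median log2 change of 0.05, 9 of 14 above 0, and 0 called by edgeR. Cldn5, a tight junction gene, showed a log2 change of -0.19 (SE 0.0892) and Flt1, a VEGF receptor gene, -0.08 (SE 0.0640). Pecam1 and Cdh5, endothelial adhesion genes, had 0.14 (SE 0.0784) and 0.13 (SE 0.0935). Esam, another, and the barrier lipid transporter gene Mfsd2a were higher in each LPS library (Esam at 14.1 to 14.6 and 15.1 to 16.5 CPM, Mfsd2a at 21.3 to 25.9 CPM in saline, 26.9 to 30.5 CPM in LPS) and the VEGF receptor gene Kdr lower in each (25.8 to 29.6 and 22.0 to 24.6 CPM). None of these passed, with an edgeR adjusted p of 0.548 each for Mfsd2a and Kdr and 0.779 for Esam. All but Cldn5 and Flt1 were picked out after their values were seen. Summed astrocyte markers were 3399 to 3557 CPM in the saline and 3226 to 3624 CPM in the LPS libraries, and summed neuron markers 11451 to 12616 and 11526 to 12039 CPM. Summed microglia markers were 401 to 426 and 410 to 445 CPM. Meningeal fibroblast markers had the median of 0.32 given above. The part of cell composition in the Slc7a5 difference was not tested.

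Other transporters were read from 2 lists. Of 7 measured SLC7 family genes, edgeR, DESeq2 and limma-voom each called 0, and by edgeR 0 were under 0.05 in unadjusted p. Slc7a6 went from 15.8 ± 0.446 to 16.7 ± 0.962 CPM and Slc7a1, a cationic amino acid carrier gene, from 66.4 ± 4.80 to 71.1 ± 2.72 CPM (SD, n = 3 each). Slc7a3, another cationic carrier gene, showed a log2 change of 0.29 (SE 0.231). Slc7a4 was at 51.8 to 52.7 CPM in saline libraries but at 63.0, 16.8 and 56.6 CPM in LPS 1 to 3, so LPS 2 stood apart. Its exons overlap those of P2rx6 on the other strand.

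Among 17 further measured neutral amino acid carriers, 0 were called by edgeR and 1 had an unadjusted p under 0.05. That gene was Slc38a10, an SLC38 family member. It had 66.1, 66.1 and 66.7 CPM in the saline and 46.9, 54.4 and 54.7 CPM in the LPS libraries, so each LPS library was lower (log2 -0.35, SE 0.0713, adjusted p = 0.132 by edgeR). DESeq2, which called 80 of all rows lower where edgeR called 27, called it with an adjusted p of 0.0101. Slc38a5, a glutamine carrier gene of low level, was higher in each LPS library, LPS 2 being the highest (5.74 to 6.44 CPM in saline, 6.82, 9.86 and 6.52 CPM in LPS). Its log2 change was 0.36 (SE 0.170, adjusted p = 0.711 by edgeR). By FPKM its groups overlapped, at 2.68 to 3.17 in saline and 3.11 to 4.66 in LPS libraries.

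Carriers that share substrates with Slc7a5 had smaller or less certain differences. Slc43a2 (LAT4, a uniporter of large neutral amino acids) had a log2 change of -0.11 (SE 0.0883), Slc6a15 (a neuronal carrier of branched-chain amino acids) -0.04 (SE 0.0935) and Slc6a17 (its vesicular relative) 0.01 (SE 0.143). Slc1a5 (ASCT2, a glutamine exchanger) was scarce, at 1.47 to 2.92 CPM in the saline and 2.63 to 3.48 CPM in the LPS libraries, with a log2 change of 0.42 (SE 0.270). Slc38a9, the lysosomal carrier that senses arginine, had -0.08 (SE 0.0872). Slc36a1, a lysosomal proton-coupled carrier gene, was at 34.7 CPM in Saline 3 and at 88.2 to 105 CPM in the other 5 libraries. Slc43a1 had no row.

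**Figure D4:**
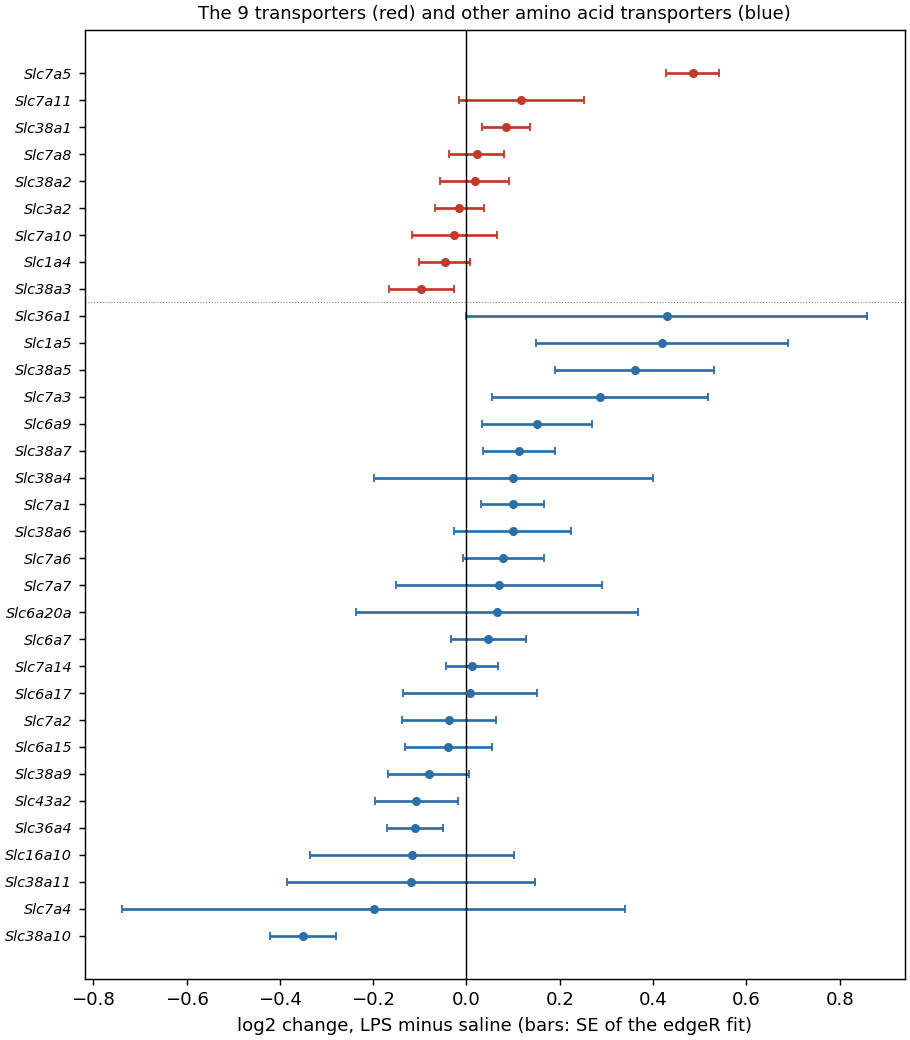
Log2 change, LPS minus saline, with its SE, for the 9 transporter genes (red) and 24 other measured amino acid transporter genes (blue). Slc7a5 lies at 0.48 with a short bar, the 8 other red points lie between -0.10 and 0.12, and Slc38a10 is the lowest blue point at -0.35.

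Genes downstream and upstream of amino acid uptake were covered by 7 more lists. Over all 9 lists of other transporters and pathway genes, 160 genes had a row. Of these 160, edgeR called 0 higher and 0 lower, against 0.288% of all rows, and 6 higher and 8 lower had an unadjusted p under 0.05, against 7.17% of all rows. By DESeq2 0 were higher and 4 lower, and by limma-voom 0 passed. The median log2 change of the 160 was -0.02.

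The list of amino acid sensing and mTORC1, the growth kinase complex that leucine activates, had 40 measured genes, a median of -0.03 and 0 called. Mtor itself went from 112 ± 3.21 to 108 ± 8.84 CPM (SD, n = 3 each). Sesn2, a leucine sensor gene, showed a log2 change of -0.12 (SE 0.0976). The smallest p-values were those of Sec13, a shared subunit of GATOR2 and of vesicle coats (0.19, SE 0.0797), and Castor1, an arginine sensor gene at 1.94 to 3.29 CPM (0.48, SE 0.198). Neither passed, with edgeR adjusted p of 0.686 and 0.689.

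Several of the 9 transporters are known targets of ATF4. The list of ATF4 and the stress response around it held 28 measured genes. They included targets of ATF4 and also kinase genes upstream of it, so the counts below are not those of targets alone. By edgeR 0 were called, with a median of 0.01, and 2 higher and 4 lower had an unadjusted p under 0.05. Atf4 had a log2 change of 0.03 (SE 0.0866), Asns (asparagine synthetase) -0.11 (SE 0.0631), Psat1 (serine synthesis) 0.07 (SE 0.0605), Phgdh, the first enzyme of that route, 0.01 (SE 0.0728) and Chac1 (glutathione breakdown) 0.21 (SE 0.161). Trib3 had no row. The kinase gene Eif2ak4 (GCN2), which detects uncharged tRNA, was at 18.3 to 19.6 CPM in the saline and 20.9 to 22.1 CPM in the LPS libraries (0.19, SE 0.0775, adjusted p = 0.656 by edgeR).

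The lowest values of this list belonged to Atf3 and Ddit4, stress genes that many stimuli induce. Atf3 had 48, 58 and 44 counts in saline and 19, 9 and 8 counts in LPS libraries, a log2 change of -2.09 (SE 0.371). Its edgeR adjusted p was 0.0752, it was 0.0487 without LPS 1, and DESeq2 called it at 0.00207. Ddit4, an inhibitor of mTORC1, had 36.9, 48.2 and 43.3 CPM in the saline and 34.0, 31.8 and 29.3 CPM in the LPS libraries (-0.43, SE 0.104, edgeR adjusted p = 0.254, DESeq2 adjusted p = 0.0259). Both genes were lower in each LPS library.

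Amino acids are loaded onto tRNA by the aminoacyl-tRNA synthetases. All 20 cytosolic ones were measured, with a median log2 change of -0.02. By edgeR 0 were called and 0 were under 0.05 in unadjusted p. Tars and Lars, the threonine and leucine enzymes, had the smallest p-values, with log2 changes of -0.16 (SE 0.0742) and -0.11 (SE 0.0723). Wars, the tryptophan enzyme, was at 47.4 CPM in Saline 3 and 91.2 to 97.1 CPM in the other 5 libraries. Saline 3 thus stood apart in Wars as it did in Slc36a1.

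The breakdown of leucine, isoleucine and valine was covered by 14 genes, all measured. All 14 had a log2 change below 0, from -0.35 to -0.0040, with a median of -0.08, where 7064 of all 14250 rows were below 0. None was called by edgeR, and 2 had an unadjusted p under 0.05. Ppm1k, the phosphatase that activates the branched-chain keto acid dehydrogenase, had 74.6, 82.6 and 77.3 CPM in the saline and 64.3, 58.8 and 60.7 CPM in the LPS libraries. Each LPS library was lower, with a log2 change of -0.35 (SE 0.0634, adjusted p = 0.0809 by edgeR). DESeq2 called it, with an adjusted p of 0.00330. Acadsb, a dehydrogenase of isoleucine breakdown, had -0.13 (SE 0.0550, adjusted p = 0.689 by edgeR). The transaminase genes Bcat1 and Bcat2, which take the first step, had -0.02 (SE 0.0565) and -0.02 (SE 0.148).

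Glutamate transport and the glutamine cycle, into which the SLC38 carriers feed, had 13 measured genes, 0 called and a median of -0.02. Glul (glutamine synthetase) went from 1915 ± 82.8 to 1960.3 ± 83.5 CPM (SD, n = 3 each). Slc1a3, an astrocytic glutamate transporter gene, showed a log2 change of -0.03 (SE 0.0596). Slc1a6, a transporter gene at 7.38 CPM in saline, and Slc17a6, a vesicular one, had the smallest p-values, with -0.19 (SE 0.120) and -0.15 (SE 0.106). Slc1a2, the main astrocytic glutamate transporter gene, had 866, 966 and 3365 CPM in the saline and 3558, 3755 and 752 CPM in the LPS libraries. It fell into a high and a low level that crossed the treatment groups, and no difference can be read from it (log2 0.63, SE 0.922). Because the counting is not stated to use strand, reads of genes that overlap another on the other strand are uncertain. Among the genes named from the lists these were Slc7a7 (with Oxa1l), Glul (Teddm2), Gss (Acss2) and Thra (Nr1d1), besides Slc7a4, and, with transcripts that have no row here, Slc38a9, Slc38a10, Slc43a2, Slc1a2, Bcat1 and Bcat2.

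Glutathione genes and targets of NRF2, the factor that drives Slc7a11 under oxidative stress, had 14 measured genes, a median of -0.02, 0 called by edgeR and 0 at an unadjusted p under 0.05. Gclc, the rate-limiting enzyme of glutathione synthesis, had 0.11 (SE 0.0672) and Gss, its second enzyme, -0.17 (SE 0.104).

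Thyroid hormone genes were listed because LAT1 carries the hormone. Of 8 measured genes 0 were called, with a median of 0.04 and 2 at an unadjusted p under 0.05, both higher in LPS. The hormone-inactivating deiodinase gene Dio3 was scarce, at 45, 50 and 75 counts in saline and 119, 117 and 80 counts in LPS libraries (log2 0.85, SE 0.261, adjusted p = 0.458 by edgeR). Thra, a thyroid hormone receptor gene, had 0.14 (SE 0.0584, adjusted p = 0.696 by edgeR).

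**Figure D5:**
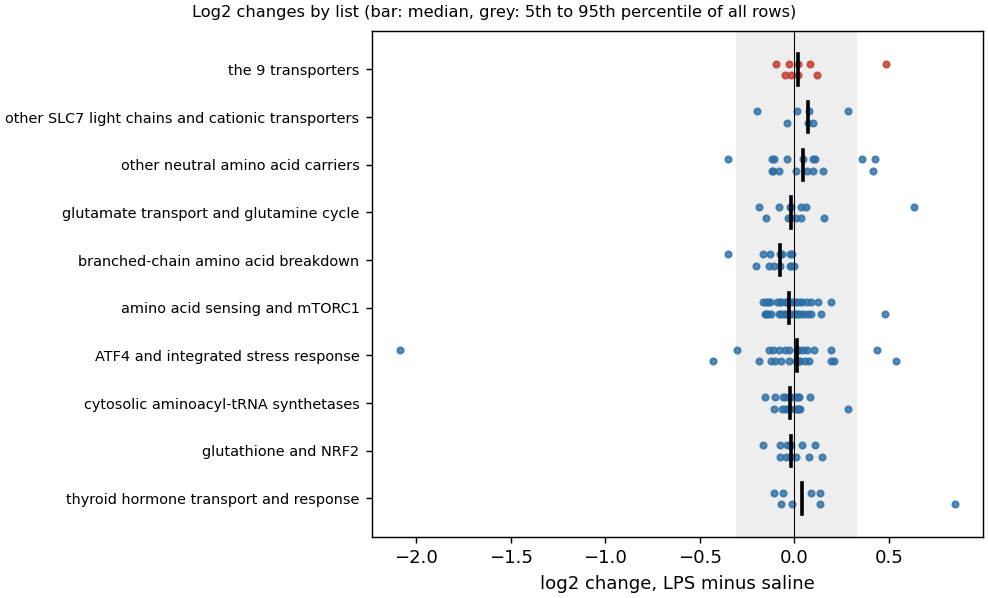
Log2 change, LPS minus saline, of each measured gene (points) in the 9 transporters and in 9 lists of other transporters and amino acid pathway genes, with the median as a black bar and the 5th to 95th percentile of all rows (-0.30 to 0.32) in grey. List medians lie between -0.08 and 0.07, and Slc7a5 is the red point at 0.48.

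The genes whose pattern over the 6 libraries was most like that of Slc7a5 were Clmp, Dlk2, Hmga1, Mark1 and Zfand2a, in falling order of Pearson's r from 0.998 to 0.986 on log2 CPM. They were taken from 9512 named genes with at least 10 CPM on average, of which 29 had r of 0.95 or more. With 3 libraries at each of 2 levels, such values mostly record that a gene differs between the groups. Hmga1, a chromatin protein gene, rose by 1.04 on the log2 scale (SE 0.0772) and Zfand2a, a stress-inducible zinc finger gene, by 1.34 (SE 0.0777), both called by edgeR (adjusted p of 0.000341 and 8.44e-05). Clmp (a cell adhesion gene, 0.22, SE 0.0726), Mark1 (a microtubule kinase gene, 0.18, SE 0.0511) and Dlk2 (a Delta-like Notch ligand relative, 0.13, SE 0.0678) were not, with edgeR adjusted p of 0.512, 0.420 and 0.751. Exons of Hmga1 and Dlk2 overlap tested genes on the other strand, so their reads are uncertain.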

How the data were processed

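RNA-seq of 6 ACC libraries was read from the authors' deposited table of raw counts and FPKM per gene. The tools TopHat2 2.1 and DESeq 1.10.1 and the build GRCm38 are named in the submitters' processing notes. What each did, the counting program, the annotation and any filter are not stated there, and the kit is not stated to keep strand. Of 14250 rows, 688 (newGene) had no Ensembl identifier, and 23 date-like symbols were restored.

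Counts were tested over all rows with edgeR 4.0.16 in R 4.3.3 (quasi-likelihood, robust, TMM, treatment only, two-sided, Benjamini-Hochberg, threshold 0.05), after a filter that removed 0 rows. The SE was derived from the fold change and F statistic. Log2 CPM used a prior count of 2. The test was tested on simulated data. Positions and exon lengths came from GENCODE M21 (GRCm38), promoters from RefSeq. Any pair of libraries differed by a chi-square of at least 32.1 times its degrees of freedom, so none was a duplicate.

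Named genes were the 9 members, a panel, the 2 smallest p-values in each list and the 5 genes most like Slc7a5. Some panel genes are not reported here. The genes near Slc7a5, Slc7a4, Slc36a1, Wars, Pecam1, Cdh5, Esam, Mfsd2a and Kdr were added after their values were seen. Members and lists were chosen with earlier results of these data known. Alternatives were leaving out each library, a block for the replicate number, RLE factors, total counts, DESeq2 1.42.0, limma-voom 3.58.1, other filters and limma on log2(FPKM + 1) or log2(FPKM + 0.1). CPM per kb for the light chain share was added after seeing the data.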

Additional observations from a re-analysis of the deposited data

How the results depend on the processing

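Slc7a5 kept its direction and its call under all 16 alternatives, with log2 changes from 0.46 to 0.52 and adjusted p from 1.52e-08 (DESeq2) to 0.0409 (edgeR without Saline 1). The gene was chosen by its call in these same libraries, so refits of them are a description and not support. With the replicate number as a block its log2 change was 0.48 (edgeR adjusted p = 0.0325). Deviations of same-numbered libraries from their group means correlated at -0.03, 0.03 and 0.04, so the numbers were not taken to pair mice, and the block changed no call of a member or pathway gene. The 8 other transporters were called in 0 of 136 fits. Pathway genes lower numbered 4 with DESeq2 (Atf3, Ddit4, Ppm1k and Slc38a10) and 0 to 1 when a library was left out (Atf3 without LPS 1). Over all rows, DESeq2 called 60 higher and 80 lower, limma on FPKM called 8 higher at each pseudocount and filter, and leaving out a library gave 14 to 20 higher and 22 to 35 lower. The cause was not tested. The order of levels changed for 7 of 9 genes with CPM per kb, through other transcript lengths, and for 0 to 2 when a saline library was left out. The filter removed no row, so leaving it off tested nothing, though that fit is counted in the 16 and the 136. With 3 mice a group, the 95% intervals printed beside each transporter bound what could be seen.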
